A study of Mus musculus with 6 samples.

Results

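REV-ERB receptors and D-box factors carry the signal of the molecular clock to its output genes, and 6 of these genes were examined in tibialis anterior (TA) muscle: Nr1d1, Nr1d2, Dbp, Tef, Hlf and Nfil3. They were taken by symbol from a table of 55401 Ensembl genes, all 6 were found, and all 6 were among the 17222 genes tested. RNA-seq was performed on muscle from male C57BL/6 mice in which Bmal1, a core activator of the clock, was deleted by tamoxifen-inducible Cre under the HSA promoter (HSA-MCM-Bmal1-/-), so the deletion was confined by design to muscle fibers and other cells of the TA kept the gene. Mice were housed in 12 hr light and 12 hr dark, were given tamoxifen at 2 mg daily over 5 days when 12 to 16 weeks old, were injected in the TA with AAV 4 weeks later, and were sampled 4 weeks after that. The groups were AAV-GFP (n = 3) and AAV-RBM20 (n = 3), the second carrying mouse Rbm20 cDNA behind a CMV promoter. Every sample carried the Bmal1 deletion, and muscle with intact Bmal1 was not analysed here. More RBM20 vector than GFP vector was injected, so dose and transgene cannot be told apart. The clock time at collection is not given in the sources used here, and a difference in level cannot be told apart from a shift in the timing of a rhythm.

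BMAL1 and CLOCK bind E-box sequences and drive the genes for the REV-ERB receptors and the PAR bZIP factors. REV-ERBα (Nr1d1) and REV-ERBβ (Nr1d2) are heme-binding nuclear receptors that repress genes with ROR response elements, Bmal1 and Nfil3 among them. DBP, TEF and HLF are PAR bZIP activators that bind D-box sequences, and NFIL3 (E4BP4) is a bZIP repressor that competes with them for the same sites. In muscle these factors are known for daily rhythms in metabolic and clock genes.

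Total counts ranged from 41400132 to 54226618 per library, and the members had 197 to 11740 counts in a library. Levels are given as CPM, counts relative to the TMM-scaled library size. The libraries numbered 3 stood apart in both groups, with 4.48% and 9.05% of counts from Ttn against 16.9% to 17.8% in the other 4, and 11.4% to 12.5% from mitochondrial genes against 6.41% to 7.66%. Results are therefore given with and without them. Muscle fiber markers summed to 55008 CPM or more in every library, matching the tissue label. Rbm20, the gene in the vector, was 2.91-fold higher in the mean CPM of AAV-RBM20, with all 3 libraries above all 3 of AAV-GFP.

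The promoter windows of the members (RefSeq, GRCm38.p6, 250 bases before to 50 after each start) were searched on both strands for the E-box CACGTG, the D-box TTANGTAA and the core of the ROR element TAGGTCA, and no matches in the members overlapped. All 6 members had a window, and Tef had 2. Sequences outside the windows were not searched, so a member without a match may have one elsewhere. The E-box was in both Tef windows, 127 and 138 bases before the start, and is found in 7.15% of all 32851 windows. The ROR core was in the Nfil3 window on the opposite strand, 12 bases before the start, and is found in 2.61% of windows. The D-box, found in 2.32% of windows, had no match in a member. These sequences are shown because they are the places where letters of the clock's own elements lie near a member's start, with the match in capitals, read 5′ to 3′ on the gene's strand. The Tef stretch at chr15:81811264-81811413 lies before the start, outside annotated exons, on the plus strand. The other Tef stretch, chr15:81802534-81802563 on the plus strand, and the Nfil3 stretch, chr13:52981034-52981063 on the minus strand, lie in exon 1 of a GENCODE transcript.
Tef upstream stretch: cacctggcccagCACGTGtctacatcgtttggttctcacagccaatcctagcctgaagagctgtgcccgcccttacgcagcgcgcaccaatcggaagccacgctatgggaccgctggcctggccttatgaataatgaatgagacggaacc
Tef exon 1 site: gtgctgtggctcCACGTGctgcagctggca
Nfil3 exon 1 site: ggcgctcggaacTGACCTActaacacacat

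The comparison asked whether the output arm of the clock differed between AAV-RBM20 and AAV-GFP in muscle without fiber Bmal1. The D-box antagonist Nfil3 had the lowest fold change of the 6, at 0.548 times the AAV-GFP mean. Dbp had the highest, at 1.58 times. By the quasi-likelihood test of edgeR, adjusted by Benjamini-Hochberg, 0 of 6 members passed an adjusted p of 0.05, as did 0% of all genes tested. Rbm20, the delivered gene, did not pass this test either, at a log2 fold change of 1.54 ± 0.15 (SE) and an adjusted p of 0.121. A member that did not pass is therefore not shown to be unchanged. At an unadjusted p under 0.05 there was 1 member, Nfil3, against 7.90% of all genes. DESeq2 without the block gave 0 members by adjusted p, against 0.436% of the genes given one, and 1 unadjusted, against 8.65%. With limma-voom the counts were 0 by adjusted p, against 0% of all genes, and 1 unadjusted, against 8.05%. With the replicate number as a block, 1 of 6 members passed (Nfil3, which fell), against 0.145% of all genes. At an unadjusted p under 0.05 there were then 4 members (Nr1d2, Dbp, Hlf and Nfil3), against 18.8%. Without both libraries numbered 3, 4 of 6 passed (Nr1d1, Nr1d2, Dbp and Tef, all of which rose), against 4.00%. With the replicate block in DESeq2, 3 of 6 passed (Dbp, Hlf and Nfil3), against 3.84% of the genes given an adjusted p. No member had groups that did not overlap, while 7.71% of all genes were higher and 9.04% lower without overlap. In the 3 pairs of same-numbered libraries, Dbp was higher in every pair, as were 22.2% of all genes. Hlf and Nfil3 were lower in every pair, as were 23.0%. Pairs and block follow the title numbers, and how numbers 1 and 2 pair cannot be told.

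**Figure D1:**
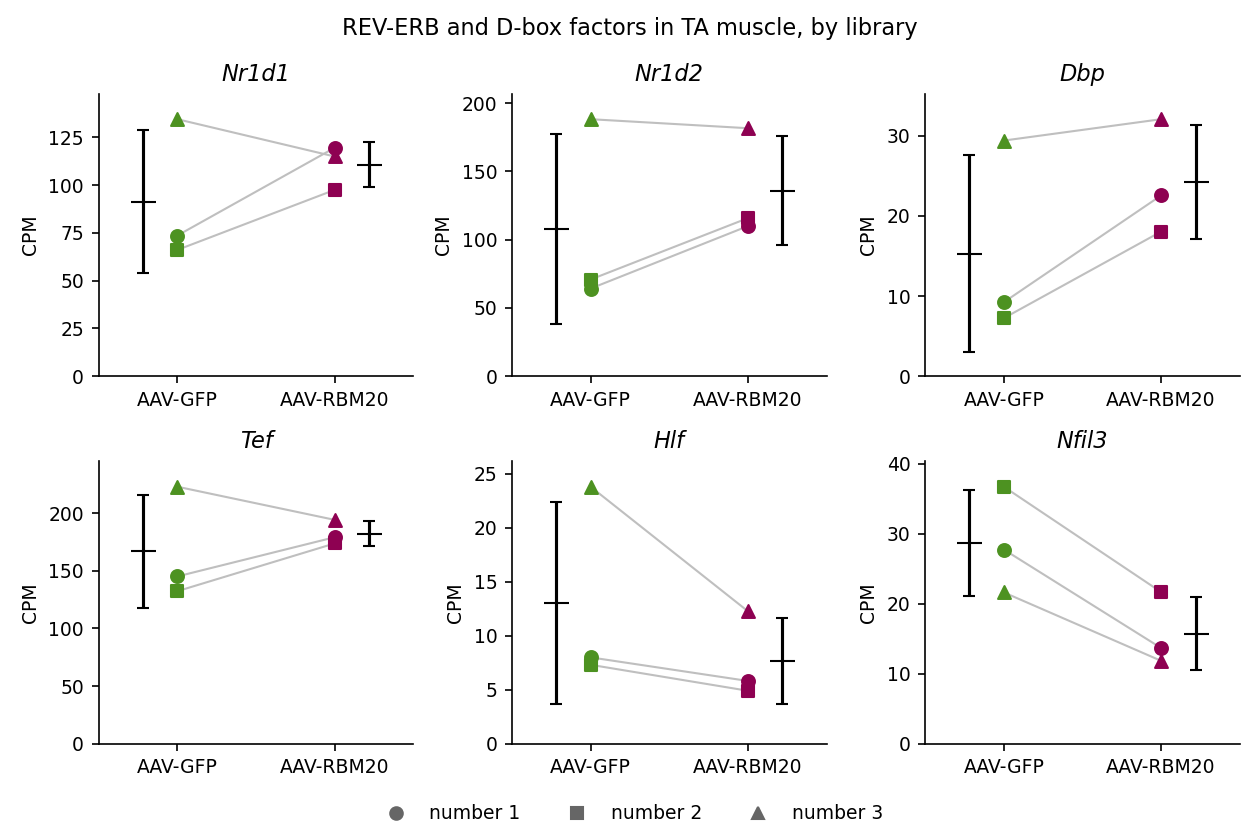
CPM of the 6 members in each library (vertical axis, starting at 0) for AAV-GFP and AAV-RBM20. Marker shape gives the replicate number, gray lines join libraries of the same number, and black bars are the mean ± SD of 3 libraries. The AAV-GFP library numbered 3 is the highest of its group in all members but Nfil3, where it is the lowest at 21.6 CPM.

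The REV-ERB receptors were examined first. Nr1d1 (ENSMUSG00000020889, GRCm38 chromosome 11, 98767932 to 98775333, minus strand) encodes REV-ERBα, the receptor with the stronger role in the clock. AAV-GFP replicates 1, 2 and 3 had 73.6, 66.1 and 134.6 CPM, and the AAV-RBM20 replicates had 119.6, 97.5 and 115.0 CPM. The AAV-GFP library numbered 3 was the highest of all 6, and the other AAV-GFP libraries were below every AAV-RBM20 library. The means were 91.4 ± 37.5 CPM (SD, n = 3) and 111 ± 11.6 CPM (SD, n = 3). This gave a log2 fold change of 0.28 ± 0.26 (SE) at an adjusted p of 0.763 by edgeR. Leaving out both libraries numbered 3 gave 0.64 ± 0.10 (SE) at an adjusted p of 0.0213 by edgeR, from 2 against 2 libraries.

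Nr1d2 (ENSMUSG00000021775, chromosome 14, 18204054 to 18239127, minus strand) encodes REV-ERBβ, which acts on the same elements. The AAV-GFP libraries had 64.1, 70.8 and 188 CPM, and the AAV-RBM20 libraries 109.9, 115.7 and 182 CPM. Both libraries numbered 3 were the highest of their group and differed little from each other, while the pairs numbered 1 and 2 were 1.71-fold and 1.64-fold higher in AAV-RBM20. Over all libraries Nr1d2 had a log2 fold change of 0.33 ± 0.42 (SE), adjusted p 0.823 by edgeR. With both libraries numbered 3 left out this became 0.75 ± 0.07 (SE), adjusted p 0.000393 by edgeR, the lowest of the 6 members in that fit. Without the AAV-GFP library numbered 3 alone, the log2 fold changes of Nr1d1 and Nr1d2 were 0.66 and 1.01, and neither passed. Nr1d1 shares 263 bases of exon with Thra, on the opposite strand, so its count is uncertain to that extent. Thra itself was at 83.8 ± 16.1 CPM (SD, n = 3) and 78.2 ± 13.9 CPM (SD, n = 3), a log2 fold change of -0.10 ± 0.19 (SE).

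Among the PAR bZIP activators, Dbp (ENSMUSG00000059824, chromosome 7, 45705088 to 45710203, plus strand) is the one with the strongest daily rhythm. Its level was 9.22, 7.24 and 29.4 CPM in the AAV-GFP libraries, against 22.5, 18.0 and 32.1 CPM in those of AAV-RBM20. The groups overlapped through the AAV-GFP library numbered 3, which was 3.57 times the mean of the other AAV-GFP libraries. The pairs numbered 1 and 2 were 2.44-fold and 2.49-fold higher in AAV-RBM20, and the pair numbered 3 was 1.09-fold higher. Dbp had a log2 fold change of 0.66 ± 0.50 (SE), adjusted p 0.710 by edgeR, and an exact permutation p of 0.3 (two-sided), where 0.1 is the smallest possible. The replicate block gave 0.89 ± 0.25 (SE), adjusted p 0.167 by edgeR. The 4 libraries numbered 1 and 2 gave 1.31 ± 0.15 (SE), adjusted p 0.00369 by edgeR. Dbp shares 539 bases of exon with Sphk2, on the opposite strand, and Sphk2 had a log2 fold change of -0.13 ± 0.15 (SE).

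Tef (ENSMUSG00000022389, chromosome 15, 81802421 to 81826863, plus strand), the activator with E-box matches within the searched windows, was the most abundant PAR bZIP gene. Counts came to 145.2, 132.3 and 223 CPM for AAV-GFP and to 179.2, 173.8 and 194.3 CPM for AAV-RBM20. All AAV-RBM20 values lay between the AAV-GFP library numbered 3 and the other AAV-GFP libraries. For Tef the log2 fold change came to 0.13 ± 0.20 (SE), adjusted p 0.864 by edgeR. In the libraries numbered 1 and 2 it came to 0.35 ± 0.07 (SE), adjusted p 0.0169 by edgeR. Without AAV-GFP replicate 2 the value turned to -0.017, so the direction over all 6 libraries rested on single libraries. Gm17597, a gene on the opposite strand that shares 193 bases of exon with Tef, was at 0.219 CPM or less on average in each group.

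Hlf (ENSMUSG00000003949, chromosome 11, 90336536 to 90390895, minus strand) was the activator with a fold change below 1. Levels were 7.99, 7.31 and 23.8 CPM with AAV-GFP, and 5.81, 4.90 and 12.3 CPM with AAV-RBM20. Within every same-numbered pair the AAV-RBM20 library was lower, at 0.727, 0.671 and 0.516 times its partner. Hlf differed by -0.77 ± 0.52 (SE) on the log2 scale, adjusted p 0.685 by edgeR. The replicate block gave -0.67 ± 0.13 (SE), adjusted p 0.0950 by edgeR, and leaving out both libraries numbered 3 gave -0.50 ± 0.14 (SE), adjusted p 0.0792 by edgeR. Hlf passed in DESeq2 with the replicate block, at -0.68 and an adjusted p of 0.0136. Without AAV-GFP replicate 3 alone the log2 fold change was 0.0017, so the value without the block rested on that library.

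Nfil3 (ENSMUSG00000056749, chromosome 13, 52967209 to 52981073, minus strand, 2 merged exons) encodes the repressor that occupies D-box sites, and it overlaps no other annotated gene. The values were 27.7, 36.7 and 21.6 CPM for the AAV-GFP libraries, and 13.7, 21.7 and 11.8 CPM for the AAV-RBM20 libraries. The lowest AAV-GFP library and the highest AAV-RBM20 library were almost equal, and the other 4 were apart. Within the pairs the AAV-RBM20 library was at 0.493, 0.590 and 0.548 times its partner. The means were 28.7 ± 7.60 CPM (SD, n = 3) and 15.7 ± 5.23 CPM (SD, n = 3). Nfil3 differed by -0.87 ± 0.27 (SE) on the log2 scale, adjusted p 0.618 by edgeR, with an exact permutation p of 0.2 (two-sided). The replicate block gave -0.88 ± 0.10 (SE), adjusted p 0.0271 by edgeR. That call and the pair values rest on the title numbers, and how numbers 1 and 2 pair cannot be told. Leaving out both libraries numbered 3 gave -0.87 ± 0.33 (SE), adjusted p 0.353 by edgeR. Nfil3 was the member whose value was nearly the same with and without the libraries numbered 3, and it was the member in which those libraries were lowest in each group, at 0.671 and 0.670 times the mean of the others.

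**Figure D2:**
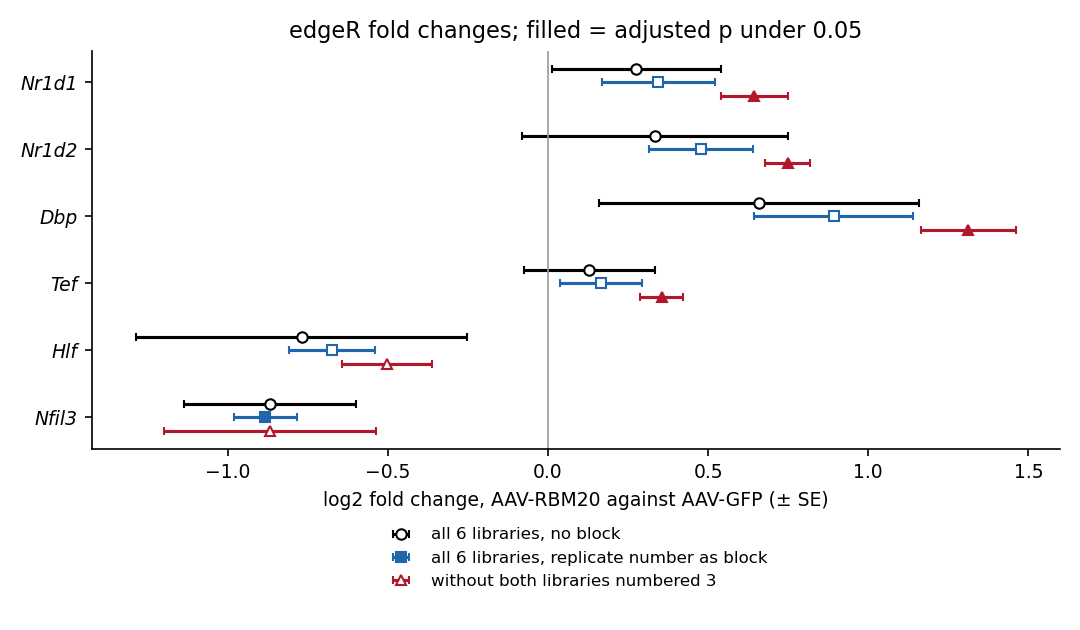
Log2 fold change of each member, AAV-RBM20 against AAV-GFP, with its SE, from 3 edgeR fits: all 6 libraries without a block (black circles), blocked by replicate number (blue squares), and without both libraries numbered 3 (red triangles). Filled markers have an adjusted p under 0.05. Nr1d1, Nr1d2, Dbp and Tef lie above 0 and Hlf and Nfil3 below 0 in all 3 fits, and Nfil3 alone is filled in the blocked fit.

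Levels were compared between members per length, as CPM per kb of merged exon. In AAV-GFP the order was Nr1d1 at 29.7 ± 12.2, Tef at 21.2 ± 6.24, Nr1d2 at 19.9 ± 12.9, Nfil3 at 14.2 ± 3.75, Dbp at 5.11 ± 4.10 and Hlf at 1.95 ± 1.40 CPM per kb (SD, n = 3). In AAV-RBM20 Nr1d1 was at 36.0 ± 3.79, Nr1d2 at 25.1 ± 7.36, Tef at 23.2 ± 1.35, Dbp at 8.09 ± 2.39, Nfil3 at 7.76 ± 2.58 and Hlf at 1.15 ± 0.602 CPM per kb (SD, n = 3). Nr1d1 was above Nr1d2 and above Tef within 6 of 6 libraries, and Dbp was above Hlf within 6 of 6. Tef and Nr1d2 could not be ordered, since Tef was higher in 4 of 6 libraries. Nr1d2 was above Nfil3 in 1 of 3 AAV-GFP libraries, the one numbered 3, and in 3 of 3 AAV-RBM20 libraries. The order of their AAV-GFP means thus rested on that library. Nfil3 and Dbp stood in a different order, with Nfil3 above Dbp in 3 of 3 AAV-GFP libraries and in 1 of 3 AAV-RBM20 libraries.

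Ratios within a library do not depend on how libraries are scaled. They were formed from counts per kb, with 6 main ratios and p-values adjusted over them. Dbp over Nfil3, activator over repressor, was 0.225, 0.133 and 0.920 with AAV-GFP, against 1.12, 0.563 and 1.83 with AAV-RBM20. It was higher in 3 of 3 pairs, by 0.99 to 2.31 on the log2 scale. The mean log2 difference was 1.79 ± 0.97 (SE), or 3.47-fold, with an exact permutation p of 0.2 (two-sided) and an adjusted p of 0.3. Tef over Nfil3 was 1.35, 0.928 and 2.66 with AAV-GFP, against 3.37, 2.07 and 4.23 with AAV-RBM20, a log2 difference of 1.05 ± 0.54 (SE). The 3 activators summed over Nfil3 differed by 1.15 ± 0.64 (SE), 2.22-fold, and Nr1d1 over Nfil3 by 1.23 ± 0.63 (SE), 2.34-fold, each higher in 3 of 3 pairs and each with an exact permutation p of 0.2. Hlf over Nfil3 differed by 0.22 ± 0.98 (SE), less than the spread between replicates, and was higher in 2 of 3 pairs. Nr1d1 over Nr1d2 differed by -0.13 ± 0.30 (SE), also less than the spread within groups. It was lower in 3 of 3 pairs, with pair differences of -0.17 to -0.08, but this count depends on the pairing. The ratio was 1.91 in AAV-RBM20 number 1 and 1.64 in AAV-GFP number 2, so that pair would be higher. The exact sign-flip test over pairs gave a p of 0.25 for this ratio, the smallest that 3 pairs allow. All 6 main ratios overlapped between groups. All but Nr1d1 over Nr1d2 share Nfil3 as denominator, so they are not independent, and the Nfil3 difference of -0.87 enters each. In the pair numbered 3, Tef and Nr1d1 themselves were lower in AAV-RBM20, at 0.871 and 0.855 times AAV-GFP. Without both libraries numbered 3 the log2 differences of Dbp over Nfil3, Tef over Nfil3, the activator sum over Nfil3 and Nr1d1 over Nfil3 were 2.19, 1.24, 1.37 and 1.52.

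The ratio of Dbp to Hlf, both PAR bZIP activators, was chosen after the values of the members were seen. It was 2.58, 2.21 and 2.76 with AAV-GFP, against 8.66, 8.21 and 5.83 with AAV-RBM20. The groups did not overlap, and the AAV-GFP libraries lay close together although the library numbered 3 was far above the others in each gene alone. The log2 difference was 1.58 ± 0.20 (SE), or 2.98-fold, with an exact permutation p of 0.1, the smallest that 3 against 3 libraries allow. Because the ratio was chosen from these values and left out of the adjustment, that p only describes the separation. The other ratios added in this way, Tef over Hlf and Dbp over Tef, were higher in 3 of 3 pairs, by 0.83 ± 0.48 (SE) and 0.74 ± 0.44 (SE) on the log2 scale, and each overlapped between the groups with an exact permutation p of 0.3. Of the summed per-length level of the 3 activators, Tef took 66.3% to 82.7% in all libraries. Hlf took 5.26% to 8.54% in AAV-GFP and 2.54% to 4.93% in AAV-RBM20. Dbp took 11.9% to 23.5% in AAV-GFP and 20.9% to 28.8% in AAV-RBM20.

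**Figure D3:**
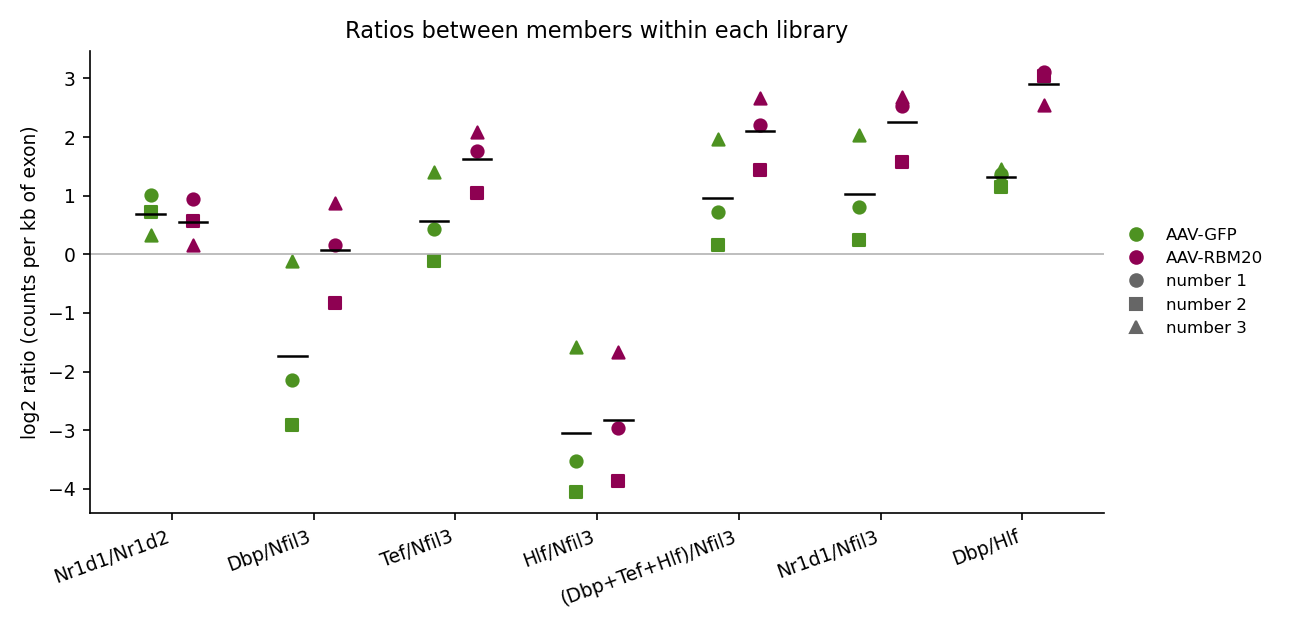
Log2 ratio of counts per kb of exon between members in each library, for AAV-GFP (green) and AAV-RBM20 (magenta), with marker shape for the replicate number and a black line at each group mean. Ratios over Nfil3 overlap between the groups, and the ratio of Dbp to Hlf does not, at 2.76 or less in AAV-GFP and 5.83 or more in AAV-RBM20 before taking logs. Dbp over Hlf was chosen after the values were seen.

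The genes that act on these factors or respond to them were then counted from 8 lists, in which 0 genes passed in edgeR with all 6 libraries and no block, and DESeq2 without the block called 1, Per3. In those fits 0% of all genes and 0.436% of the genes given an adjusted p passed. For counts over pairs, 22.2% of all genes were higher and 23.0% lower in every pair. Over all genes tested the median log2 fold change was 0.009, and 0.018 with the block. Of the 7 clock activators and ROR receptors, 0 passed with the block, 4 of 7 were lower in every pair and the median was -0.36. Bmal1 (Arntl in the annotation) was at 35.0 ± 3.63 CPM (SD, n = 3) and 26.3 ± 1.63 CPM (SD, n = 3), a log2 fold change of -0.41 and an edgeR adjusted p of 0.618, without overlap. Counts over a whole gene cannot show a deleted stretch of Bmal1.

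Of the 8 E-box repressors, the negative arm of the clock, 1 passed with the block, against 0.145% of all genes. Per3, a period gene with both E-box and D-box control, had 18.5, 16.6 and 21.2 CPM with AAV-GFP, against 41.2, 30.7 and 36.7 CPM with AAV-RBM20. Its groups did not overlap. Per3 had a log2 fold change of 0.95 with an edgeR adjusted p of 0.405, and 0.94 with the block, with an edgeR adjusted p of 0.0271. The list's median was 0.34, with 4 of 8 genes higher and 2 of 8 lower in every pair.

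The 12 genes described as repressed by REV-ERB, among them autophagy genes and the activators of the clock, had a median of -0.19, with 7 of 12 lower and 1 of 12 higher in every pair. The only one to pass with the block, where 0.145% of all genes passed, was Nfil3 itself. The 7 lower genes include Nfil3, and also Bmal1, Clock and an E-box repressor that were already counted in the lists above. The 6 genes of the corepressor complex that REV-ERB recruits had a median of -0.12, with 0 passing. In every pair 4 of 6 were lower and 1 of 6 higher. Gps2, a subunit of that complex, was lowest at -0.49 (21.5 ± 2.30 CPM against 15.4 ± 1.24 CPM, SD, n = 3, edgeR adjusted p of 0.618). Without both libraries numbered 3 its edgeR adjusted p was 0.0600, so the corepressor gene called in that fit is another. In the 7 other D-box or E-box output genes the median was 0.15 and 0 passed. Pdxk, which makes active vitamin B6 and is a target of the PAR bZIP factors, was at 8.89 ± 1.21 CPM and 10.5 ± 0.585 CPM (SD, n = 3), a log2 fold change of 0.23 without overlap and with an edgeR adjusted p of 0.665.

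In edgeR with all 6 libraries no gene passed, without or with the block, among the 5 genes of REV-ERB turnover (median -0.038), the 13 of heme synthesis and breakdown (median -0.012) or the 5 tested of 6 C/EBP family genes (median -0.021). Their members with the smallest unadjusted p were the ubiquitin ligase gene Fbxw7 at -0.18, the heme synthesis gene Alad at -0.21 and Cebpg at -0.26. With both libraries numbered 3 left out, where 4.00% of all genes passed, the calls in the 8 lists were 2 lower clock activators or ROR receptors, 1 higher E-box repressor, 3 higher output genes, 1 lower gene repressed by REV-ERB, 1 lower corepressor gene and 1 higher heme gene. Clock, an activator and a REV-ERB target, and Alas1, an output gene and a heme gene, each stand in 2 of these counts.

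**Figure D4:**
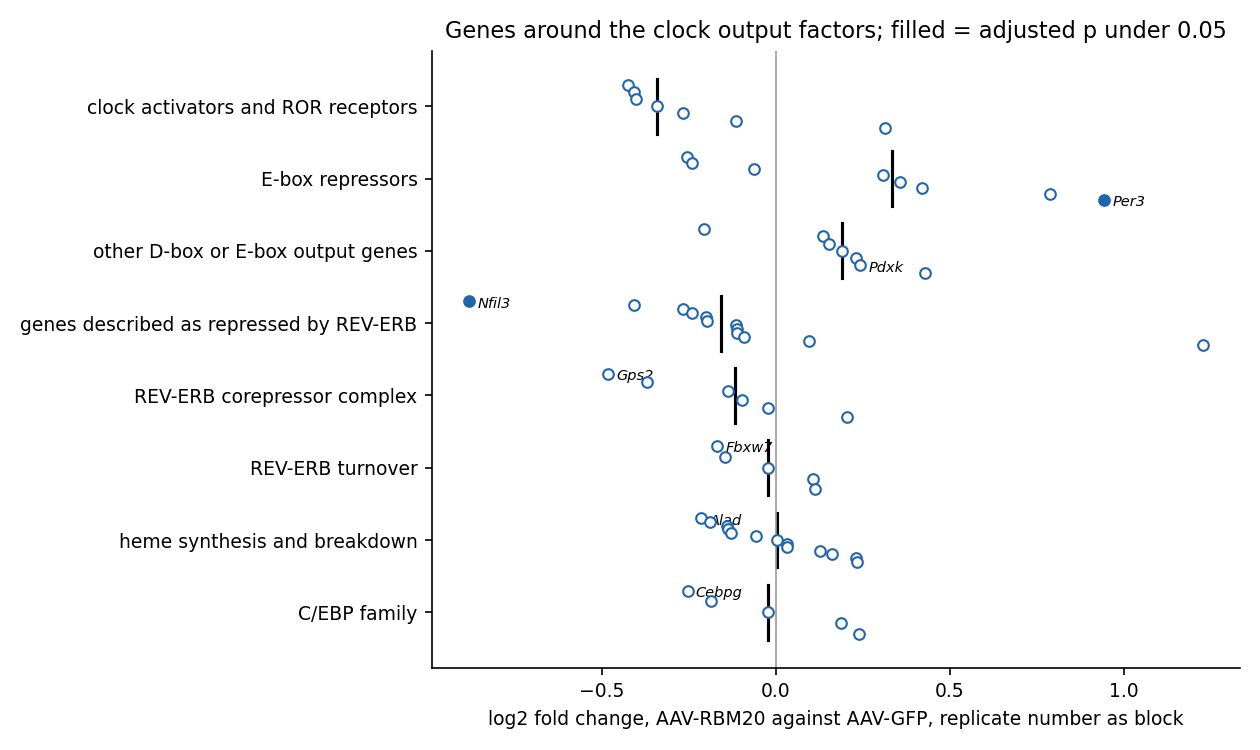
Log2 fold change of each tested gene in the 8 lists, AAV-RBM20 against AAV-GFP, from edgeR blocked by replicate number. Each point is a gene, black lines are list medians, and filled points (Per3 and Nfil3) have an adjusted p under 0.05.

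Markers of other cell types were summed in the same libraries. Bulk levels cannot tell fewer cells of a type from less RNA per cell. All 10 macrophage markers were higher in every pair, as were 22.2% of all genes, and their sum was 36.4, 34.8 and 115.5 CPM with AAV-GFP, against 86.8, 76.7 and 187 CPM with AAV-RBM20. The genes with the pattern nearest to that of Dbp over the 6 libraries were the macrophage complement genes C1qa and C1qb, with root mean square differences of 0.205 and 0.207 in centered log2 CPM, among 10643 protein-coding genes compared. The part of macrophages in the level of Dbp was not tested. The 5 fibro-adipogenic markers summed to 484 to 1020 CPM in AAV-GFP and 836 to 1073 CPM in AAV-RBM20, with 1 of 5 higher in every pair, and the genes nearest to Nr1d1 were Fstl1 and Islr at 0.0748 and 0.0773, genes known from stromal cells. The part of these cells in the level of Nr1d1 was not tested.

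The genes nearest to Nr1d2 were Nrep and Tent5a (0.0847 and 0.101), to Tef Gpx1 and Mocs2 (0.0443 and 0.0468), to Hlf Tmem100 and Mib1 (0.112 and 0.218), and to Nfil3 Ampd1 and Mafa (0.183 and 0.208), all as root mean square differences of centered log2 CPM over 6 libraries. Ampd1, the AMP deaminase of muscle fibers, was at 1293, 1290 and 982 CPM with AAV-GFP, against 716, 859 and 542 CPM with AAV-RBM20, so its libraries numbered 3 were lowest in each group, as were those of Nfil3. Muscle fiber markers summed to 82888 to 93688 CPM in AAV-GFP and 55008 to 82042 CPM in AAV-RBM20, where 2 of 8 were lower and 2 of 8 higher in every pair. The sum was lower in AAV-RBM20, as was Nfil3, and its part in the level of Nfil3 was not tested. Among the members, the nearest pairs were Nr1d1 and Tef, 0.145 apart, and Nr1d2 and Dbp, 0.306 apart, while the nearest member to Nfil3 was 0.751 away.

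Endothelial markers summed to 150 to 368 CPM in AAV-GFP and 236 to 365 CPM in AAV-RBM20, with 1 of 5 higher in every pair. The lymphocyte and natural killer markers, cells in which Nfil3 has known roles, summed to 1.08 CPM or less in AAV-GFP and to 0.572 to 4.63 CPM in AAV-RBM20, and 0 of 8 passed the filter on low counts. Schwann, smooth muscle and satellite cell markers each summed to 80.6 CPM or less in every library, adipocyte markers to 12.2 CPM or less, erythroid markers to 9.22 CPM or less and keratinocyte markers to 0.0498 CPM or less, the last with 0 of 2 tested.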

How the data were processed

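Per the labels and the study's methods, total RNA was depleted of ribosomal RNA, made into stranded libraries, mapped to mm10 with HISAT2 and counted per gene with HTSeq by the authors. The deposited counts are raw whole numbers. Tool versions, strand setting and annotation release are not given in the sources used here. A second deposited table, normalized with DESeq2, was not used here. Symbols, positions and exon lengths came from GENCODE M21 (GRCm38), promoter sequences from RefSeq (GRCm38.p6).

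Counts of all genes were tested with edgeR 4.0.16 in R 4.3.3 (filterByExpr, TMM, robust glmQLFit, glmQLFTest, no covariate), with Benjamini-Hochberg adjustment over all genes and a threshold of 0.05. The SE is the log2 fold change divided by the square root of F. Log2 CPM used a prior count of 2. Exact permutation tests were two-sided. Nothing in the labels says that samples of a group are separate animals, so p-values measure the spread between these samples. Replicates of a group differed by a chi-square of 15.1 to 545 per degree of freedom, so none was a copy. The fit was also run on simulated data with the same dispersion for every gene and no outlying libraries or pairs, unlike these data.

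Replicate numbers come from the titles, which number each group 1 to 3. The sample descriptions and the columns of the counts number the AAV-RBM20 samples 4 to 6 in place of 1 to 3, so the pairs rest on the titles. Deviations of log2 CPM from group means correlated at 0.42, 0.20 and 0.48 between same-numbered libraries, all above 0.1. Same-numbered libraries were treated as pairs by that rule. The AAV-GFP library numbered 2 correlated at 0.22 with the AAV-RBM20 library numbered 1. The AAV-GFP library numbered 1 correlated at 0.13 with the AAV-RBM20 library numbered 2. Both values are also above 0.1, so the rule sets the libraries numbered 3 apart but cannot tell how numbers 1 and 2 pair. What the numbers mark is not given in the sources used here. A lane list for the study's protein gels gives animal numbers. Some GFP and Rbm20 muscles in it share an animal number and are marked R and L, and others have no such partner. Within a group the animal numbers differ. The list does not tie these muscles to the libraries.

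Named genes were the 6 members, Rbm20 and Bmal1, from each list the members past the threshold or else the one with the smallest unadjusted p, and for each member the 2 nearest protein-coding genes whose log2 CPM averaged 1 or more. One gene that this rule names is not reported here. Per3 in the blocked fit and Ampd1's values were also named. Members and lists were chosen with earlier results of these data known. Alternatives used DESeq2 1.42.0 and limma 3.58.1, other filters and scalings, the replicate block, and libraries left out.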

Additional observations from a re-analysis of the deposited data

How the results depend on the processing

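Of the 6 members, 0 passed under 15 of 18 alternatives, among them other scalings, filters and tools without the block, removal of mitochondrial, ribosomal RNA and Rbm20 counts, and each fit without one replicate. The exceptions were the replicate block (1, Nfil3 at -0.88), DESeq2 with the replicate block (3, Dbp at 0.90, Hlf at -0.68 and Nfil3 at -0.89), and the removal of both libraries numbered 3 (4, Nr1d1 at 0.64, Nr1d2 at 0.75, Dbp at 1.31 and Tef at 0.35, all log2 fold changes). In these fits, in that order, 0.145% of all genes, 3.84% of the genes given an adjusted p and 4.00% of all genes passed. The pairing changed the edgeR call of no member but Nfil3. Removal of both libraries numbered 1 or 2, added after the data were seen, gave 0. Rbm20 itself passed under 5 of 17 alternatives. Across the fits without one replicate the log2 fold change ranged from 0.085 to 0.66 for Nr1d1, 0.063 to 1.01 for Nr1d2, 0.32 to 1.56 for Dbp, -0.017 to 0.39 for Tef, -1.27 to 0.0017 for Hlf and -1.17 to -0.65 for Nfil3, with the highest value of the first 5 in the fit without AAV-GFP replicate 3. Tef reversed (-0.017) without AAV-GFP replicate 2 and Hlf (0.0017) without AAV-GFP replicate 3. The cause was not tested.

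Ratios of Dbp, Tef, Nr1d1 and the activator sum over Nfil3, which share a denominator and are not independent, kept their direction under all 11 alternatives. So did Dbp over Hlf, a ratio chosen after the values were seen. Hlf over Nfil3 reversed without AAV-GFP replicate 1 (-0.014) or 2 (-0.28) or AAV-RBM20 replicate 3 (-0.36), and ranged from -0.36 to 0.95 across fits without one replicate. Nr1d1 over Nr1d2 reversed without AAV-GFP replicate 1 (0.030) or AAV-RBM20 replicate 3 (0.065), over a range of -0.33 to 0.065. In pairs, the exact sign-flip test of the block cannot go below 0.25, and with 2 against 2 libraries the exact permutation p cannot go below 0.33.

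The lists had 0 calls in the planned edgeR test. The replicate block, where 0.145% of all genes passed, gave 1 E-box repressor and 1 gene repressed by REV-ERB. DESeq2, where 0.436% of the genes given an adjusted p passed, gave 1 E-box repressor. With both libraries numbered 3 left out, 4.00% of all genes passed. The counts there were 1 E-box repressor, 1 corepressor and 2 clock activators or ROR receptors. There were also 1 gene repressed by REV-ERB, 1 heme gene and 3 output genes. The lowest count of a member in a library was 197, and the effect of depth was not tested.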
